A study of Mus musculus with 6 samples.

Results

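The 10 genes described here are markers of neutrophils and of IL-1 and prostaglandin inflammation: *S100a8*, *S100a9*, *Csf3r*, *Clec4d*, *Clec4e*, *Trem1*, *Il1b*, *Il1rn*, *Il1r2* and *Ptgs2*. They were chosen by symbol, with earlier results of these data known. All 10 were found among the 23183 gene symbols of the count tables and passed the filter on low counts, which 12517 genes passed. The RNA came from 6 tumours grown from UV2237M, a murine fibrosarcoma line (a malignancy of connective tissue cells) with genotype WT. Of these, 3 tumours had no treatment (untreated 1 to 3). The other 3 (treated 1 to 3) received GNC, gold nanoclusters used for photothermal therapy, at day 1 and 7, with NIR (near-infrared) irradiation. Libraries with GNC alone or light alone were not analysed here, so their parts cannot be told apart. The labels name neither the host animals nor the time of harvest, and whether the tumours came from separate animals is not given in the sources used here, so the p-values measure the spread between these samples.

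Neutrophils are short-lived white blood cells that leave the bone marrow under the growth factor G-CSF, enter injured or inflamed tissue early and carry preformed toxic and antimicrobial proteins. Interleukin 1 beta, made by neutrophils, monocytes and macrophages, raises further inflammatory genes through its receptor, and its action is held back by a secreted antagonist and by a decoy receptor. Cyclooxygenase 2 makes the precursor of prostaglandin E2, a lipid mediator of pain, fever and vessel dilation that tumour cells, fibroblasts and myeloid cells can all make. None of these transcripts belongs to a single cell type, and in bulk RNA fewer cells of a type and less RNA per cell cannot be told apart.

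All 10 genes had a higher fitted level in treated than in untreated tumours, and none passed the test. Of 10 members, 0 reached an adjusted p under 0.05 in edgeR's quasi-likelihood test over all genes, which called 0.00% of the 12517 tested genes higher and 0.00% lower. At an unadjusted p under 0.05 there was 1 member, *Il1b*, as there were 3.32% of all tested genes in the higher direction. DESeq2 called 0 members on the same 6 libraries and 0.156% of genes higher. A log2 fold change above 0 was found in 10 of 10 members and in 49.9% of tested genes, and the median log2 fold change was 0.91 over the members and 0.00 over all tested genes. Because the members were chosen with earlier results of these data known, this shared direction describes the list and supports nothing further. No member separated the groups completely: in 0 of 10 did all treated values lie above all untreated ones, against 10.3% of tested genes. All treated values lay below all untreated ones in 0 of 10 members and in 1343 of the 12517 tested genes.

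The total count was between 4680295 and 8019294 per library. Transcripts of mesenchymal cells, the class a fibrosarcoma belongs to, were abundant, with 2952 to 3973 CPM (counts scaled to a common library total) for *Vim* and 12773 to 22605 CPM for *Col3a1*. Some other mesenchymal genes were low in untreated 2: *Col1a1* had 56.8 CPM there and 1939 to 4324 elsewhere, and *Fn1* 998.2 and 2742 to 8211. *S100a4*, of the same list, was highest there, with 2287 CPM against 935.9 to 1172 elsewhere. Untreated 2 also stood apart in its base composition. Against the mean of the remaining 5 libraries, its median gene was at 0.70 (log2) among the genes poorest in GC, by 5 equal classes of their longest transcript, and at -0.86 among the richest. The common biological coefficient of variation was 33.7% with all libraries and 17.3% without untreated 2. Untreated 3 and treated 2 were the pair of libraries that differed least, with a chi-square of 5.64 per gene where counting noise alone gives about 1.

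**Figure D1:**
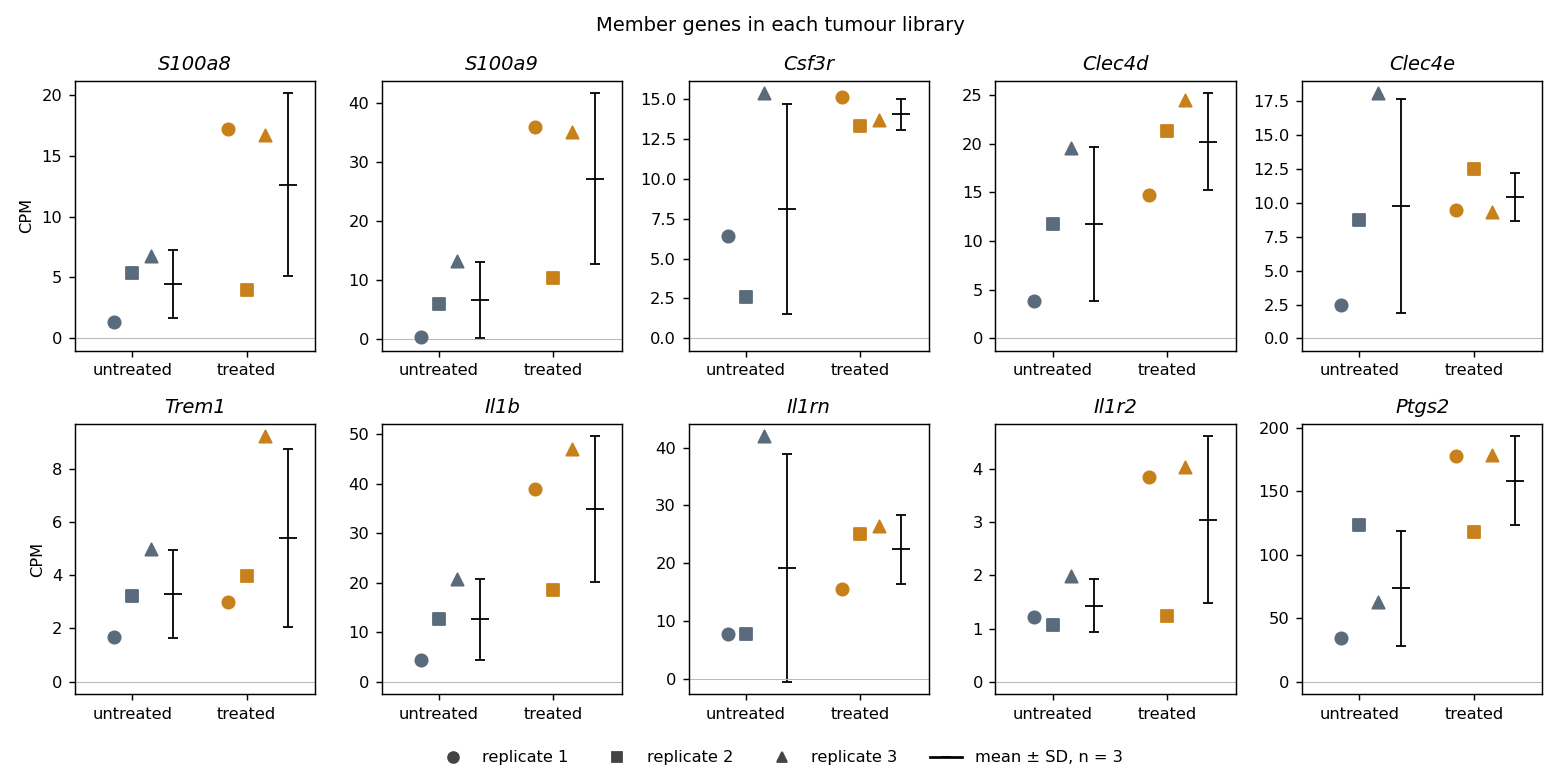
CPM of each member gene (y axis, linear, a separate scale per gene) in the 3 untreated and 3 treated libraries, with the replicate number as the symbol and the mean ± SD of each group beside the points. *Il1rn*, *Clec4e* and *Csf3r* are highest in untreated 3 (triangle, left), while *S100a8*, *S100a9*, *Il1b*, *Il1r2* and *Ptgs2* are highest in treated 1 and treated 3.

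The first members are a pair of alarmins, of which *S100a9* had the largest fold change of the 10. *S100a8* (chromosome 3, 90668978 to 90670035, mm10) and *S100a9* (chromosome 3, 90692632 to 90695721) code for the calcium-binding partners of calprotectin, a dimer that fills the cytosol of neutrophils, and lie 22596 bases apart on opposite strands. *S100a9* had 0.457, 5.98 and 13.3 CPM in untreated 1, 2 and 3, against 35.99, 10.4 and 35.1 CPM in treated 1, 2 and 3. Treated 1 and 3 lay above every untreated library, while treated 2 lay below untreated 3. The 0.457 CPM of untreated 1 rest on 3 counts, with an exact Poisson 95% interval of 0.0942 to 1.34 CPM that covers counting error only. *S100a8* had 1.37, 5.34 and 6.73 CPM in untreated 1, 2 and 3, against 17.2, 3.98 and 16.7 CPM in treated 1, 2 and 3. Here treated 2 lay below untreated 2 as well. The log2 fold changes were 2.02 ± 0.92 (SE, adjusted p 0.592) for *S100a9* and 1.48 ± 0.71 (0.592) for *S100a8*, and neither difference exceeded the spread between the libraries of a group by this test. There were 1.98 counts of *S100a9* per count of *S100a8* in untreated 3 and 2.09, 2.62 and 2.11 in treated 1, 2 and 3. The ratio was 0.333 and 1.12 in untreated 1 and 2, from 3 over 9 and 28 over 25 counts.

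*Csf3r* (chromosome 4, 126024550 to 126044440) codes for the receptor of G-CSF, the factor that drives neutrophil production. It had 6.40, 2.56 and 15.3 CPM in untreated 1, 2 and 3, against 15.1, 13.3 and 13.6 CPM in treated 1, 2 and 3. The treated libraries were close to one another, at 14.02 ± 0.949 CPM (SD, n = 3), and untreated 3 lay above all of them, so the untreated mean was 8.10 ± 6.55. The log2 fold change was 0.77 ± 0.54 (adjusted p 0.644). Untreated 2, in which GC-rich genes were low, was lowest. At 54.2% GC, *Csf3r* lay at -2.20 log2 there against the mean of the other libraries, and the median gene of its GC class at -0.51.

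*Clec4d* (chromosome 6, 123262111 to 123275265) and *Clec4e* (chromosome 6, 123281789 to 123289870), neighbours 6523 bases apart, code for MCL and Mincle, lectin receptors that sense microbial glycolipids and, in the case of Mincle, products of dead cells. *Clec4d* had 3.81, 11.8 and 19.6 CPM in untreated 1, 2 and 3, against 14.7, 21.3 and 24.5 CPM in treated 1, 2 and 3. Treated 2 and 3 lay above every untreated library and treated 1 lay between untreated 2 and 3. *Clec4e* had 2.44, 8.76 and 18.1 CPM in untreated 1, 2 and 3, against 9.48, 12.5 and 9.35 CPM in treated 1, 2 and 3. Its highest and lowest values were both in untreated tumours. The log2 fold changes were 0.77 ± 0.53 (adjusted p 0.641) for *Clec4d* and 0.08 ± 0.61 (0.969) for *Clec4e*, and that of *Clec4e* was -0.39 without untreated 1 and -0.06 without treated 2. *Trem1* (chromosome 17, 48232768 to 48246924), a receptor that amplifies inflammatory signals on neutrophils and monocytes, had 1.68, 3.21 and 4.99 CPM in untreated 1, 2 and 3. In treated 1, 2 and 3 it had 2.98, 3.98 and 9.22 CPM, so that treated 3 stood above the other 5 libraries. Its log2 fold change of 0.70 ± 0.57 (adjusted p 0.682) was 0.08 without treated 3.

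The IL-1 members comprise a cytokine, its antagonist and a decoy receptor. *Il1b* (chromosome 2, 129364570 to 129371139), the cytokine, had 4.42, 12.6 and 20.8 CPM in untreated 1, 2 and 3, against 39.0, 18.5 and 47.0 CPM in treated 1, 2 and 3. Treated 1 and 3 were the highest of the 6, and treated 2 lay just under untreated 3. Its log2 fold change was 1.45 ± 0.57 (adjusted p 0.592), and it was above 0 in every fit without 1 library (1.03 to 2.01). *Il1bos*, an antisense gene that overlaps it, had 0 to 4 counts per library.

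*Il1rn* (chromosome 2, 24336853 to 24351494) codes for the receptor antagonist that blocks IL-1 signalling. It had 7.92, 7.91 and 41.9 CPM in untreated 1, 2 and 3, against 15.6, 25.1 and 26.5 CPM in treated 1, 2 and 3. Untreated 3 was the highest library, 5.29-fold over the mean of untreated 1 and 2, and every treated library lay between untreated 3 and the other two. With a log2 fold change of 0.21 ± 0.65 (adjusted p 0.918), no difference between the groups could be seen beyond their spread, and the value was -0.17 without untreated 1 and -0.15 without untreated 2. *Il1r2* (chromosome 1, 40074079 to 40125231), the decoy receptor that binds IL-1 without signalling, was the member with the fewest counts. It had 1.22, 1.07 and 1.99 CPM in untreated 1, 2 and 3, against 3.86, 1.24 and 4.04 CPM in treated 1, 2 and 3, from 5 to 32 counts. Treated 1 and 3 again lay above the rest and treated 2 within the untreated range (log2 fold change 1.05 ± 0.56, adjusted p 0.597).

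The balance of cytokine and antagonist transcripts varied from library to library. There were 0.558, 1.59 and 0.497 counts of *Il1b* per count of *Il1rn* in untreated 1, 2 and 3, against 2.49, 0.738 and 1.77 in treated 1, 2 and 3. Treated 1 and 3 had the highest ratios and treated 2 lay within the untreated range. The ratio of *Il1b* to *Il1r2* counts was 3.62, 11.8 and 10.4 in the untreated libraries against 10.1, 15.0 and 11.6 in treated libraries. With 5 to 32 counts of *Il1r2* behind them, these ratios carry a wide counting error, and a difference between them was not tested.

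*Ptgs2* (chromosome 1, 150100031 to 150108227), the gene of cyclooxygenase 2, had the most counts of the members. It had 34.4, 123.1 and 63.0 CPM in untreated 1, 2 and 3, against 178, 117.9 and 178.6 CPM in treated 1, 2 and 3. Treated 2 lay under untreated 2 and above the other 2 untreated libraries. The log2 fold change was 1.08 ± 0.47 (adjusted p 0.592) with all libraries and 1.70 ± 0.283 (0.227) without untreated 2. At 40.0% GC it belongs to the GC-poor genes that were high in untreated 2. There it was at 0.36 (log2) against the remaining libraries, and the median gene of its GC class at 0.70. The part of base composition in the *Ptgs2* difference was not tested. DESeq2 without untreated 2 called it (adjusted p 8.37e-07, range over its alternatives 8.37e-07 to 0.966), together with 1.01% of all genes in the higher direction. Untreated 2 was the only untreated library above a treated one in this gene. Leaving it out separates the groups, so the call describes that choice and supports nothing further, and edgeR on the same libraries did not call it.

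Levels can be compared between genes only per length of transcript. As CPM per kilobase of annotated exon, *S100a9* led in treated tumours with 52.1 ± 27.8 (SD, n = 3), followed by *Ptgs2* with 34.5 ± 7.62, *Il1b* with 18.3 ± 7.70, *S100a8* with 18.2 ± 10.8 and *Clec4d* with 12.6 ± 3.11. Neighbours in this order had overlapping ranges of mean ± SD, except *Ptgs2* and *Il1b*. In untreated tumours *Ptgs2* was first with 16 ± 9.88 and *S100a9* second with 12.6 ± 12.4. *Il1rn*, *Csf3r*, *Clec4e*, *Trem1* and *Il1r2* had 4.05, 3.88, 2.10, 1.80 and 1.6 CPM per kilobase in treated and 3.48, 2.24, 1.97, 1.10 and 0.748 in untreated tumours.

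Promoters were searched for motifs of factors known to act on inflammatory genes, and 4 members with a match are shown so that the letters can be set beside their values. Windows of 250 bases before to 50 after the annotated start were taken from RefSeq (GRCm38.p6), and all 10 genes had one. The letters TTNNGCAA, bound by C/EBP factors of the myeloid lineage, were found on either strand in 3 of 10 genes and in 10.8% of 32851 windows. An NF-kB motif, 3 G, any 2 bases, 3 T and 2 C in a row, was found in 1 of 10 genes and 1.63% of windows, the AP-1 motif TGANTCA in 1 of 10 and 7.81%, and the CRE TGACGTCA in 0 of 10 and 1.79%. The motifs are in capitals below, 5′ to 3′ on the strand of the gene: first *S100a9* (chr3:90695672-90695971, minus strand), with its match 236 bases before the start, then *Clec4e* (chr6:123289822-123290121, minus strand), 66 before, *Ptgs2* (chr1:150099781-150100080, plus strand), 69 before, and the NF-kB letters of the downstream start of *Il1rn* (chr2:24345121-24345420, plus strand), 51 before. A further window of *Il1rn*, around its upstream start, held the AP-1 letters.
S100a9: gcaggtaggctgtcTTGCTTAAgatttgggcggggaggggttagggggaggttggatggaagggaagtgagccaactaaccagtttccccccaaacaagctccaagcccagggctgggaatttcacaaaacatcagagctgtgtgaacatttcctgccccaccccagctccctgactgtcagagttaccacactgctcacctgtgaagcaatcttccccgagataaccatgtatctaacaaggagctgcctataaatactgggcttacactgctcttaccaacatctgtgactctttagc
Clec4e: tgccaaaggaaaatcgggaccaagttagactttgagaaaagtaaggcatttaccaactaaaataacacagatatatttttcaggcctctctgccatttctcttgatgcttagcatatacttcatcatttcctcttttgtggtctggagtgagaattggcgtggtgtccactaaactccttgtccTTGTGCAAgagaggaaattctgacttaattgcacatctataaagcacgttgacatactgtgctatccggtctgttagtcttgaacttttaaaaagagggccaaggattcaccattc
Ptgs2: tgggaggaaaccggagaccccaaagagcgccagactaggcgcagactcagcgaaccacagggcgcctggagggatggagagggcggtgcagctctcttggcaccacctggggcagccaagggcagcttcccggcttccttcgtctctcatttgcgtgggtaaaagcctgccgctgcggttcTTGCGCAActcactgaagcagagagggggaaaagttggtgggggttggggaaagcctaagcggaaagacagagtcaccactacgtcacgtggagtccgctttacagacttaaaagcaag
Il1rn: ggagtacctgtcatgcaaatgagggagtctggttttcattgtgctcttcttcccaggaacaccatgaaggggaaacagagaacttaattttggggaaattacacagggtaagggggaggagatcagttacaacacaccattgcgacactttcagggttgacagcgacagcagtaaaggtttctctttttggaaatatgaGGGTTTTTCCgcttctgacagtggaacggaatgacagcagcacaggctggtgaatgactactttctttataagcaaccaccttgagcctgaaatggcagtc
Of the 3 genes with TTNNGCAA, *S100a9* had the largest and *Clec4e* the smallest log2 fold change of the members. A match is a run of letters and not a measured binding site.

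Untreated 3 was set apart because its values differ from the other untreated libraries in these genes, a choice made with earlier results of these data known. Averaged over the members' log2(CPM + 1), scaled to SD units over the libraries, untreated 1 was the lowest library at -1.40. Untreated 2 and 3 lay at -0.53 and 0.37, and treated 1, 2 and 3 at 0.53, 0.12 and 0.91. Untreated 3 was the highest untreated library in 9 of 10 members, *Ptgs2* being the exception, and in 30.5% of tested genes. It was the highest of all 6 libraries in 3 of 10, *Il1rn*, *Csf3r* and *Clec4e*, against 8.73% of tested genes. Both counts restate the choice of this library and support nothing further. The summed CPM of the members was 64.1, 182.3 and 205.8 in untreated 1, 2 and 3, against 331.9, 228.2 and 364.7 in treated 1, 2 and 3, and *Ptgs2* made up the largest part of it in every library.

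Since untreated 3 was set apart for its high values in these same genes, the counts and calls without it describe that choice and support nothing further. In 7 of 10, *S100a9*, *Il1b*, *Il1rn*, *Il1r2*, *Csf3r*, *Clec4d* and *Clec4e*, all 3 treated values were above untreated 1 and 2, as in 18.4% of tested genes. Against untreated 1 and 3 alone this held for 1 of 10, *Ptgs2*, and again for 18.4% of tested genes. The groups did not overlap in 5 of 10 members without treated 2 (17.9% of tested genes), in 1 of 10 without treated 1 (15.7%), and in 0 of 10 without untreated 1 (13.1%) or treated 3 (11.3%), by a count added after the data were seen. Without untreated 3, edgeR's log2 fold change was 3.10 for *S100a9*, 2.01 for *Il1b*, 1.90 for *S100a8*, 1.6 for *Csf3r*, 1.47 for *Il1rn*, 1.37 for *Il1r2*, 1.35 for *Clec4d*, 1.13 for *Trem1*, 0.96 for *Ptgs2* and 0.88 for *Clec4e*. *Ptgs2* was the member whose value was smaller than with all libraries. The median over the members was 1.42 without untreated 3, and 0.84 without untreated 2. Without untreated 1 every member's value was smaller than with all libraries. They were 1.45 for *S100a9*, 1.03 for *Il1b* and *S100a8*, 0.92 for *Il1r2*, 0.72 for *Ptgs2* and 0.61 for *Csf3r*. For *Trem1*, *Clec4d*, *Il1rn* and *Clec4e* they were 0.36, 0.33, -0.17 and -0.39. With untreated 3 left out edgeR still called 0 of 10 members, and 0.00% of all genes higher. DESeq2 without untreated 3 called 3 of 10 and 1.00% of all genes higher. Those 3 were *S100a9* (adjusted p 0.0335, range over its alternatives 0.0335 to 0.966), *Il1b* (0.0493, range 0.0493 to 0.966) and *Il1rn* (0.0296, range 0.0296 to 0.993).

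**Figure D2:**
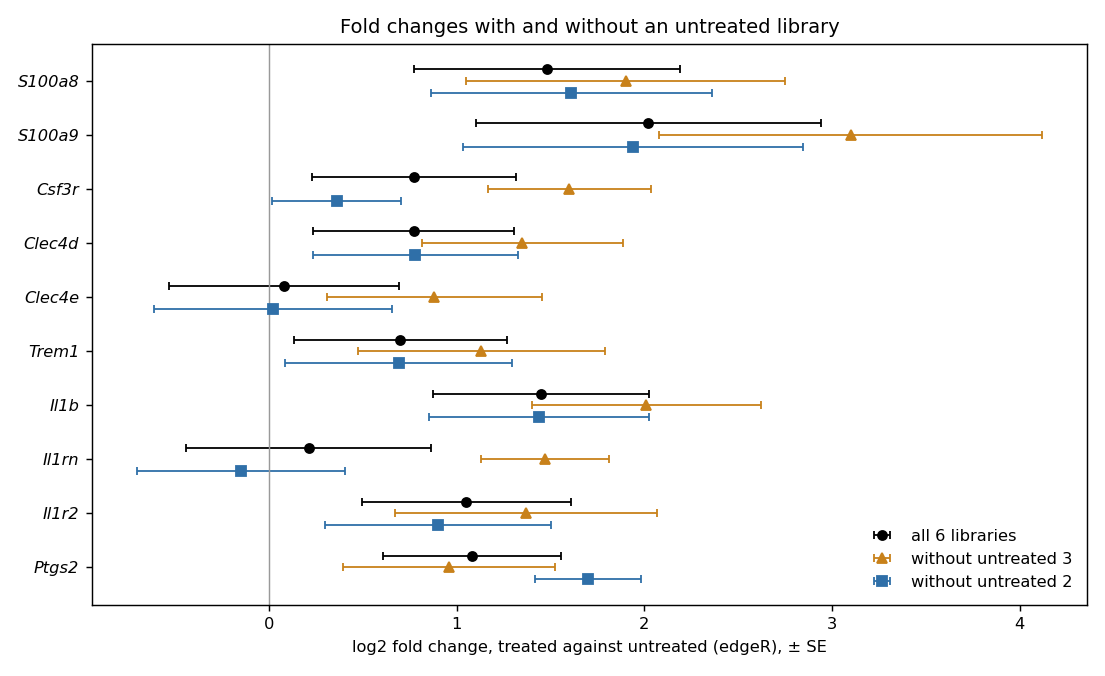
Log2 fold change of treated against untreated tumours (x axis, edgeR, bars ± SE) for each member with all 6 libraries, without untreated 3 and without untreated 2. Without untreated 3 the values of all members but *Ptgs2* lie further to the right and that of *Ptgs2* to the left, at 0.96. Without untreated 2 the value of *Ptgs2* lies further to the right, at 1.70, and that of *S100a8* slightly so, at 1.61.

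Other neutrophil genes were listed by where their products are found, and their counts depended on which untreated libraries were used. Untreated 3 was set apart for its high values in the members, so counts and calls without it describe that choice here too. The higher and lower counts and medians of these lists were not computed without untreated 1, the library lowest in the members on average. Of 14 granule genes 4 were tested, 2 higher and 2 lower, with a median log2 fold change of 0.25, and 0 passed. Without untreated 3 it was 3 higher and 1 lower, with a median of 1.32. DESeq2 then called 1, *Mmp9*, beside 1.00% of all genes in the higher direction. Without untreated 2 it was 3 higher and 2 lower, with a median of 0.33. *Mpo* and *Elane*, enzymes of the primary granules that are transcribed in marrow precursors, had 0 counts in all libraries, where 3 counts, the limit that a count of 0 allows, would be 0.374 to 0.641 CPM. *Camp*, *Ngp* and *Ltf*, made at the next stages of maturation, had 0 to 3 counts. *Mmp9*, a gelatinase, had 18.9, 5.55 and 62.6 CPM in untreated 1, 2 and 3, against 42.1, 56.8 and 56.9 CPM in treated 1, 2 and 3, with untreated 3 highest as for *Il1rn*. *Lcn2*, an iron-chelating lipocalin, was also highest in untreated 3, with 5.61 CPM against 1.92 to 3.43 CPM elsewhere, and *Lyz2*, lysozyme of neutrophils and macrophages, averaged 423.9 ± 171.7 CPM after treatment against 673.4 ± 374.8 without it (SD, n = 3). The log2 fold change of *Lyz2* was -0.70 with all libraries and -0.14 without untreated 2.

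Of 11 tested surface genes 5 were higher and 6 lower (median -0.02, 0 passed), and 7 higher and 4 lower without untreated 3 (median 0.47). Without untreated 2 it was 7 higher and 5 lower of 12 (median 0.10). *Cxcr2*, the receptor for the chemokines that draw neutrophils into tissue, had 5.33, 3.42 and 6.48 CPM in untreated 1, 2 and 3, against 11.2, 6.86 and 8.59 CPM in treated 1, 2 and 3. It was the gene of the list with all treated values above the untreated ones, at a log2 fold change of 0.79 ± 0.34 (adjusted p 0.592). The integrin chains *Itgam* and *Itgb2* and the Fc receptor *Fcgr3*, which macrophages share, had log2 fold changes of -0.32, -0.02 and -0.47, and *Fcgr4* of -0.79. *Ly6g* was not analysed here. Of 11 other neutrophil transcripts tested 7 were higher and 4 lower (median 0.34, 0 passed). Without untreated 3 it was 10 higher and 3 lower of 13 (median 1.67), and without untreated 2 it was 9 higher and 4 lower of 13 (median 0.68). DESeq2 without untreated 3 called 4, *Hdc*, *Hcar2* and *Stfa2l1* higher and *Asprv1* lower. Over all genes it called 355 in both directions, and 1.00% higher. *Padi4*, the enzyme that citrullinates histones in neutrophil traps, had 5.48, 1.496 and 6.48 CPM in the untreated libraries and 9.66, 8.10 and 16.8 CPM in the treated ones. Its groups did not overlap (log2 fold change 1.33 ± 0.52, adjusted p 0.592). *Cybb*, a subunit of the oxidase that neutrophils and macrophages share, lay in the other direction without overlap, with 20.7 ± 10.9 against 46.6 ± 12.4 CPM (-1.19 ± 0.40, adjusted p 0.592). That was the case for 1343 of 12517 tested genes. *Mxd1* and *Ncf1* had log2 fold changes of 0.34 and -0.41. *Asprv1*, which epidermis also expresses, had 32.5, 35.0 and 2.62 CPM in untreated 1, 2 and 3 and 1.51 to 4.42 CPM in treated tumours. *Hcar2*, a receptor for hydroxy acids named after its values were seen, had a pattern like that of the alarmins, with 1.22, 0.641 and 11.6 CPM in untreated 1, 2 and 3, against 35.5, 6.59 and 32.5 CPM in treated 1, 2 and 3.

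Among colony stimulating factors and their receptors 3 of 6 tested genes were higher and 3 lower (median 0.02, 0 passed). *Csf3*, which codes for G-CSF, the ligand of *Csf3r*, had 0, 0 and 11 counts in untreated 1, 2 and 3 and 11, 12 and 23 counts in treated 1, 2 and 3. In CPM this was 1.37 in untreated 3 and 1.65 to 2.91 in treated tumours, so that the groups did not overlap (log2 fold change 2.01 ± 1.02, adjusted p 0.592). *Csf1r*, the receptor that defines macrophages, lay in the other direction with 97.5 ± 33.2 against 188.2 ± 17.7 CPM (-0.96 ± 0.28, adjusted p 0.592). *Csf1* and *Csf2rb* had log2 fold changes of 0.19 and -0.09.

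In the IL-1 family the other ligands lay in both directions. Of 5 tested 3 were higher and 2 lower (median 0.37, 0 passed). *Il33*, an alarmin of stromal and endothelial nuclei, had 2.59, 4.70 and 10.7 CPM in untreated 1, 2 and 3, against 8.95, 25.9 and 31.5 CPM in treated 1, 2 and 3 (log2 fold change 1.85 ± 0.62, adjusted p 0.592). *Il18* had 1.75 ± 0.16 against 3.24 ± 0.395 CPM without overlap (-0.89 ± 0.34, adjusted p 0.592), and *Il18bp*, its soluble inhibitor, 4.17 ± 1.67 against 5.55 ± 0.668. *Il1f9* (also *Il36g*) had a log2 fold change of 0.37. *Il1a*, the sister cytokine of *Il1b*, had 0, 2 and 18 counts in untreated 1, 2 and 3, against 9, 13 and 25 in treated 1, 2 and 3, with untreated 3 again within the treated range.

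Of 6 tested receptor genes of the IL-1 family, most of them not receptors of IL-1 beta, 3 were higher and 3 lower (median -0.04, 0 passed), and of 11 adapters and kinases 7 were higher and 4 lower (median 0.07, 0 passed). *Il1r1*, the signalling receptor, had 116.1 ± 4.91 against 142.6 ± 44.9 CPM, and *Il1rap*, its partner chain, 62.6 ± 9.26 against 89.3 ± 53.9 (SD, n = 3). Untreated 2 was highest for both, and their log2 fold changes of -0.32 and -0.54 were -0.02 and 0.11 without it. *Il1rl1*, the receptor of IL-33, had 181.9 CPM in treated 1 and 29.6 to 90.8 CPM in the other libraries. *Irak1*, *Tab2*, *Map3k7* and *Irak2* had log2 fold changes of 0.23, 0.17, -0.29 and -0.31, and *Map3k7* was at 0.03 without untreated 2. Of 10 tested genes of the inflammasome route, along which the IL-1 beta precursor is cut and released, 2 were higher and 8 lower (median -0.33, 0 passed). *Nlrp3*, the sensor, had 6.40, 2.14 and 15.2 CPM in untreated 1, 2 and 3, against 12.8, 10.02 and 16.7 CPM in treated 1, 2 and 3. *Gsdmd*, the pore protein through which the cytokine leaves the cell, had 19.9 ± 2.38 against 34.6 ± 7.71 CPM without overlap (-0.81 ± 0.25, adjusted p 0.592), and *Nek7* and *P2rx7* had -0.26 and -0.03, with *Nek7* at 0.01 without untreated 2.

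**Figure D3:**
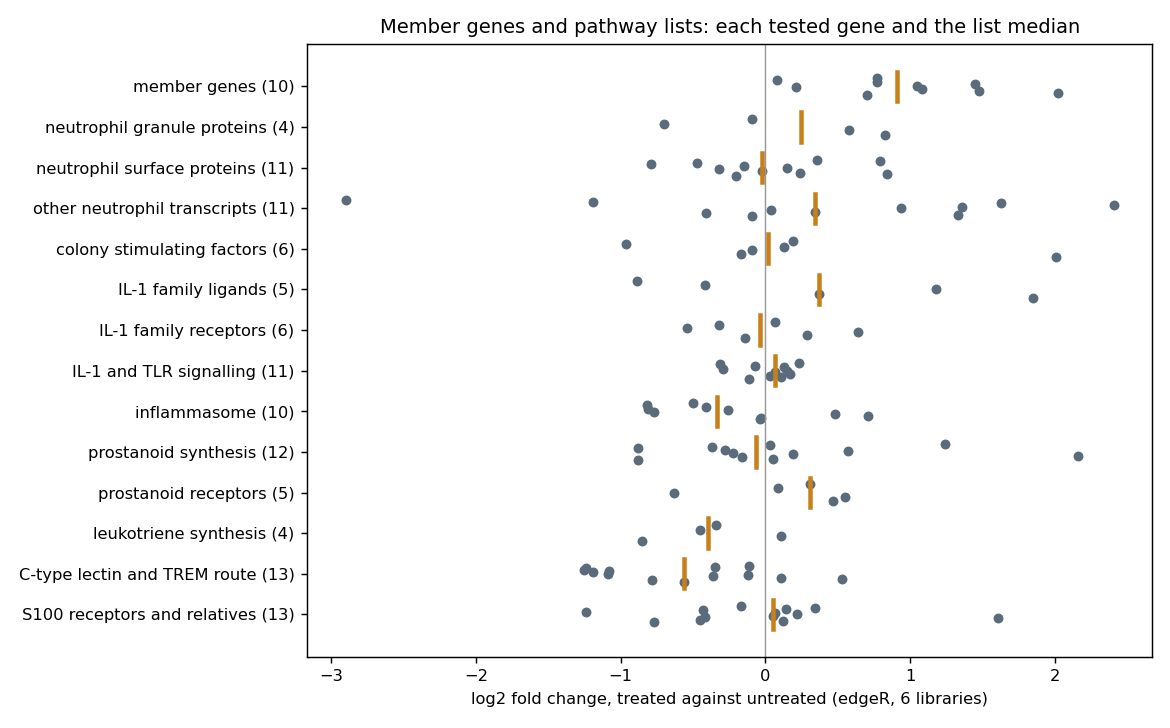
Log2 fold change of treated against untreated tumours (x axis, edgeR, 6 libraries) for each tested gene of the members and of 13 pathway lists, with the number tested in brackets and the list median as a bar. The members' median is 0.91, and the medians of the other lists lie between -0.56 for the C-type lectin and TREM route and 0.37 for the IL-1 family ligands.

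Of the prostanoid genes around *Ptgs2*, 6 of 12 tested synthesis genes were higher and 6 lower (median -0.07, 0 passed). *Ptges*, the inducible synthase that acts after *Ptgs2* to make prostaglandin E2, had 66.4, 42.3 and 77.3 CPM in the untreated libraries and 95.1, 82.1 and 99.7 CPM in the treated ones. The groups did not overlap (log2 fold change 0.57 ± 0.25, adjusted p 0.592). *Ptgis*, prostacyclin synthase, did not overlap either, at 0.305, 0.427 and 1.496 CPM in the untreated libraries and 1.58, 3.29 and 5.81 CPM in the treated ones (2.16 ± 0.72, adjusted p 0.592). *Ptgs1*, the constitutive cyclooxygenase, had 77.8 ± 5.73 against 86.7 ± 20.2 CPM, so the counts of *Ptgs2* per count of *Ptgs1* were 0.314, 1.70 and 0.807 in the untreated libraries against 2.12, 1.53 and 2.46 in treated tumours. *Hpgds*, the synthase of prostaglandin D2 in mast cells and macrophages, lay in the other direction without overlap, with 8.03 ± 3.52 against 14.7 ± 1.92 CPM (-0.88 ± 0.34, adjusted p 0.592), and *Ptges3* had 0.19. Of 5 tested prostanoid receptors 4 were higher and 1 lower (median 0.31, 0 passed). *Ptger1*, *Ptgir* and *Ptger4* had log2 fold changes of 0.31, 0.47 and -0.63. Of 4 leukotriene genes 1 was higher and 3 lower (median -0.39, 0 passed), with -0.34 for *Alox5*, -0.45 for *Alox5ap* and 0.11 for *Lta4h*.

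The relatives of *Clec4d*, *Clec4e* and *Trem1* lay mostly on the other side. Of 13 tested genes of the C-type lectin and TREM route 2 were higher and 11 lower, with a median log2 fold change of -0.56, and 0 passed. *Clec4a1*, a lectin gene of the same cluster, had 18.1, 17.7 and 16.7 CPM in the untreated libraries and 4.92, 9.88 and 7.58 CPM in the treated ones (-1.24 ± 0.29, adjusted p 0.592 in edgeR). DESeq2 on the same 6 libraries called it lower (-1.26, adjusted p 0.0491), among 57 genes called in both directions. *Clec4n*, Dectin-2, named after its values were seen, had a log2 fold change of -1.19 ± 0.50 and *Trem2*, a macrophage receptor named likewise, of -0.78 ± 0.32. *Clec4e* had 0.176 and 0.215 counts per count of *Clec4n* in untreated 1 and 2, 0.771 in untreated 3 and 1.59, 0.791 and 0.725 in treated 1, 2 and 3. *Syk*, the kinase these receptors signal through, had 0.53, and the adapters *Tyrobp* and *Bcl10* -0.56 and -0.11. Of 13 tested receptors and relatives of the S100 genes 7 were higher and 6 lower (median 0.05, 0 passed). *S100a4*, *S100a6* and *S100a11*, which tumour cells and fibroblasts express, had -0.45, 0.12 and 0.22, and *S100a1* and *S100a3* had -1.24 and 1.61. Without untreated 2 the log2 fold change was 0.11 for *S100a4* and -0.43 for *S100a1*.

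Markers of other cell types differed between the libraries beside the members. All 8 tested keratinocyte markers were lower in treated tumours (0 passed in edgeR). DESeq2 on the same 6 libraries called *Krt10* lower (log2 fold change -4.17, adjusted p 0.0213, against 0.592 in edgeR), among 57 genes called in both directions. The summed CPM of 12 keratinocyte markers was 1305 and 743.5 in untreated 1 and 2, 8.48 in untreated 3 and 24.1, 6.31 and 85.5 in treated 1, 2 and 3. *Krt5* and *Krt14*, keratins of the basal layer, had 0 counts in untreated 3 and treated 2, while *Krt10*, a keratin of the upper layers, had 44 and 28. Macrophage markers had sums of 838.7, 1419 and 984.5 CPM in the untreated libraries and 407.6, 774.0 and 676.2 in treated 1, 2 and 3, without overlap, and 8 of 11 were lower (median -0.80, 0 passed). *C1qa*, *C1qb* and *C1qc*, complement genes of tissue macrophages, had log2 fold changes of -1.32, -1.30 and -1.43, *Mrc1* of -0.78 and *Cd163* of 0.91. Monocyte, mast cell and dendritic markers lay lower too, in 5 of 5, 5 of 5 and 2 of 2 tested genes (0 passed in edgeR). DESeq2 with all libraries called the mast cell gene *Mcpt4* lower (-2.27, adjusted p 0.0491, against 0.592 in edgeR). Without untreated 2 monocyte markers were 3 higher and 3 lower, with a median of -0.05 in place of -0.84. Mast cell sums were 28.3 to 62.4 CPM in the untreated libraries and 13.3 to 19.4 CPM in treated tumours. Lymphocyte markers were sparse, with sums of 1.05 to 7.16 CPM for T and NK cells and 0.624 to 1.23 for B cells. Endothelial markers were higher in 5 of 6 (median 0.40, 0 passed), with sums of 77.3 to 147.9 CPM in the untreated libraries and 110.8 to 182.3 in treated tumours. Skeletal muscle markers had a sum of 408.3 CPM in treated 3 and 3.29 to 90.8 CPM elsewhere, and red cell markers 2.47 to 10.1 CPM. The part of these other cell types in the differences of the members was not tested.

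**Figure D4:**
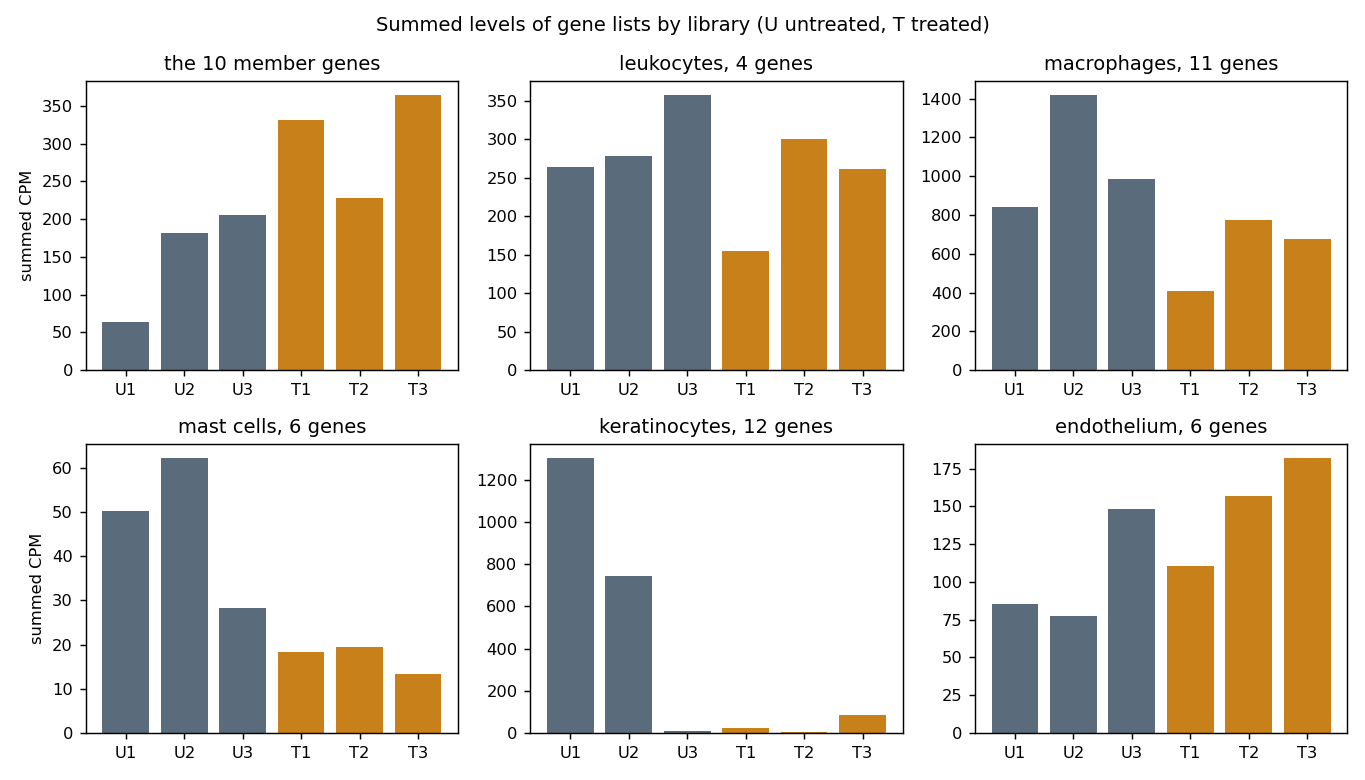
Summed CPM (y axis from 0, a separate scale per panel) of the 10 member genes and of markers of leukocytes, macrophages, mast cells, keratinocytes and endothelium in untreated (U1 to U3) and treated (T1 to T3) libraries. The members' sum is 64.1 CPM in U1 and 364.7 CPM in T3, while the macrophage sum is lower in each treated library than in each untreated one, and keratinocyte markers stand out in U1 and U2.

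The members' level relative to marker transcripts of leukocytes and macrophages was computed after their values were seen. *Ptprc*, the gene of CD45, which all leukocytes carry, had 44.6, 106.4 and 51.8 CPM in the untreated libraries and 26.0, 43.4 and 33.0 CPM in the treated ones. All 4 leukocyte markers had a log2 fold change below 0 (median -0.44, 0 passed), those of *Laptm5* and *Lcp1* being -0.10 and -0.02, and 0.18 and 0.41 without untreated 3. There were 0.099, 0.118 and 0.402 counts of *Il1b* per count of *Ptprc* in untreated 1, 2 and 3, against 1.5, 0.427 and 1.43 in treated 1, 2 and 3. For *S100a9* they were 0.0102, 0.0562 and 0.258 in the untreated libraries against 1.39, 0.241 and 1.07 in treated tumours, with treated 2 under untreated 3. Per *Ptprc* count, 4 of 10 members had all treated values above the untreated ones, *Il1b*, *Csf3r*, *Clec4d* and *Ptgs2*, against 47.3% of tested genes, which is near the background. Per count of the 4 leukocyte genes together it was 3 of 10, *Il1b*, *Csf3r* and *Clec4d*, against 13.5%, and per count of the macrophage markers 5 of 10, those of *Ptprc* and *Trem1*, against 49.3%.

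The genes with the pattern most like the members were sought among 10423 others with at least 5 CPM on average. Each gene's log2(CPM + 1) was centred and scaled over the 6 libraries and compared with the mean of the members by the root mean square difference in SD units. The nearest were *Cebpb*, a transcription factor of the C/EBP family (0.17), *Ccl6*, a chemokine of myeloid cells (0.17), *Spire2* (0.17), *Pcbp4* (0.19) and *Frrs1* (0.20). Of the members themselves *Il1b* (0.19) and *S100a9* (0.21) were nearest to their mean and *Csf3r* (0.71) farthest. *Ccl6* had 5.33, 16.4 and 73.9 CPM in untreated 1, 2 and 3, against 60.7, 64.9 and 139.5 CPM in treated 1, 2 and 3, so that untreated 3 lay within the treated range. *Cebpb* had 29.6, 43.2 and 61.0 CPM in the untreated libraries and 69.7, 50.5 and 87.4 CPM in the treated ones (log2 fold change 0.62 ± 0.33, adjusted p 0.595).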

How the data were processed

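RNA sequencing of 6 tumours was deposited as 1 table of raw counts per sample, by gene symbol, whole numbers with no normalization by the authors. Reads were aligned with TopHat to mm10, per the submitters' processing notes. Not given in the sources used here: its version, the counting program with its strand setting, and the gene annotation used. CPM were computed on each library's total deposited count. Genes were kept with edgeR's filterByExpr (smallest count 10), scaled by TMM (factors 0.9597 to 1.019) and tested over all 12517 genes with edgeR's quasi-likelihood test (edgeR 4.0.16, R 4.3.3) and Benjamini-Hochberg adjustment, at an adjusted p of 0.05. The SE is the log2 fold change divided by the square root of F. An exact permutation test of 3 against 3 cannot go below p = 0.1 and was not used. Scripts were tested on simulated data.

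The members and all lists were chosen with earlier results of these data known. The rule for naming listed genes took the 3 with the highest mean CPM and the one with the smallest p in each direction. Genes outside it were chosen after their values were seen: *Mpo*, *Elane*, *Camp*, *Ngp*, *Ltf*, *Il1a*, *Hcar2*, *Hdc*, *Stfa2l1*, *Clec4n*, *Trem2* and *Col1a1*. Groups and replicate numbers come from the labels. No pair of libraries was identical (chi-square of 5.64 per gene or more). Alternatives were DESeq2 1.42.0, limma 3.58.1 (voom), other filters, a replicate block and leaving out libraries. Gene positions come from GENCODE M21 on mm10 and promoters from RefSeq (GRCm38.p6).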

Additional observations from a re-analysis of the deposited data

How the results depend on the processing

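The count of members past an adjusted p of 0.05 was 0 with all 6 libraries in edgeR, DESeq2 and limma-voom, and 0 without any 1 library in edgeR. It was 3 by DESeq2 without untreated 3 and 1, *Ptgs2*, by DESeq2 without untreated 2 (adjusted p 8.37e-07, range over its alternatives 8.37e-07 to 0.966). In the members called, the library left out was the highest untreated one, so these calls support nothing further. An edgeR fit without both left untreated 1, the library lowest in *Ptgs2*, as the only untreated library against 3 treated ones. It gave *Ptgs2* a log2 fold change of 2.21, and the spread between untreated libraries could not be measured. Over all tested genes the count was 0 in edgeR, 57 by DESeq2, 0 to 4 in edgeR when 1 library was left out (4 without untreated 3), 355 by DESeq2 without untreated 3, 273 by DESeq2 without untreated 2 and 85 by edgeR without both. Listed genes outside the members were also called by DESeq2. With all 6 libraries these were *Krt10*, *Clec4a1* and *Mcpt4*, all lower. *C1qa*, *C1qb* and *C1qc* were called lower without untreated 2 and without untreated 3. *Csf1r* lower and *S100a6* and *Thy1* higher were among the others without untreated 2. *Csf3* and *Il33* higher and *Ccr2* and *Mcpt4* lower were among the others without untreated 3. The cause of these differences was not tested.

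The direction turned for *Il1rn* (log2 fold change -0.17 without untreated 1, -0.15 without untreated 2 and -0.15 by DESeq2 without untreated 2) and for *Clec4e* (-0.39 without untreated 1 and -0.06 without treated 2). Without untreated 2 and 3 together, with untreated 1 as the only untreated library, the values of *Il1rn* and *Clec4e* were 1.51 and 2.10. The other 8 members stayed above 0 under every alternative run. Of 86 named genes of the other lists, the fitted direction turned for 11 without untreated 2 (*Itgb2*, *Csf1*, *Il1rap*, *Tab2*, *Map3k7*, *Nek7*, *Ptger1*, *Bcl10*, *S100a4*, *Plac8* and *Emcn*) and for 8 without untreated 3 (*Lcn2*, *Itgb2*, *Csf2rb*, *P2rx7*, *S100a6*, *Laptm5*, *Lcp1* and *Emcn*).

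Replicate numbers did not pair the libraries: the deviations of same-numbered libraries from their group means had correlations of -0.182, -0.11 and 0.108. A fit with the replicate number as a block called 0 members and 0 genes, with 10 of 10 members higher, and gave *Il1b* 1.55 (adjusted p 0.615).

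Depth limits the low members most. Between 5 and 32 counts stand behind each value of *Il1r2*, and 3 counts behind *S100a9* in untreated 1.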
